A study of Mus musculus with 15 samples.

Results

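The genes described here build the carriers that move newly made proteins between the endoplasmic reticulum (ER) and the Golgi: the subunits of the COPI and COPII coats, the cargo receptors packed into those carriers, the SNARE proteins that fuse them, and 2 Golgi matrix proteins. They were taken from a list of 47 names by role; the rule uses no signal value, but the list was drawn up with earlier results of these data known. A gene was read through the array's transcript clusters, the probe groups that stand for 1 transcript, and where several clusters carried only its symbol, the one with the highest mean over all arrays was used. This gave 46 measured genes among the 19938 genes named on the array; Kdelr2 was not analysed here. Only Tmed2 and Tmed10 had more than 1 cluster.

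In the classical secretory route, the small GTPase Sar1 recruits the inner COPII shell (Sec23 and Sec24) and then the outer shell (Sec13 and Sec31) to ER exit sites, and the resulting carriers move cargo forward to the Golgi. COPI, a complex of subunits named alpha to zeta and recruited by the GTPase Arf1, carries escaped ER proteins and recycling receptors back. Transmembrane receptors link soluble cargo to the coats. Islet endocrine cells send large amounts of prohormone through this route, and in the beta cell that cargo is mostly proinsulin.

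RNA from mouse pancreatic islet cells was hybridised to 15 Affymetrix Mouse Gene 1.0 ST arrays, 5 for each of 3 groups, on a mixed B6 and BALB/C background. Pdx1-deficient cells (PKO, called reprogrammed cells in the labels) were taken 5 days after tamoxifen; Pdx1 is a transcription factor needed for beta-cell identity. The alpha and beta control cells were YFP-positive cells sorted from islets of mice aged 2 months. The comparisons describe how these genes differed between Pdx1-deficient and control cells, and between the normal cell types. The groups may differ in more than Pdx1, as set out next, so a difference cannot be assigned to its loss alone. For the alpha samples the labels give the genotype RIP-CreER; Pdx1fl/+, RosaYFP, and for the beta samples glucagon-Cre; RosaYFP, so each control carries the driver usually active in the other cell type. Arrays were grouped by the titles of the samples. The sources used here do not state which exon was removed, whether controls received tamoxifen, how the Pdx1-deficient cells were sorted, their age, or whether arrays of a group came from separate animals. The p-values therefore rest on the variation among these 15 samples alone, and part or all of it may be technical.

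Values are deposited log2 signals, and all differences are in log2 units, which convert to the fold differences given only if the base of the logarithm is 2. Pdx1 itself read 9.12, 7.83, 7.68, 6.53 and 7.59 in Pdx1-deficient arrays 1 to 5, 8.15, 7.98, 8.21, 7.70 and 7.27 in alpha arrays, and 8.85, 9.33, 9.26, 9.02 and 9.26 in beta arrays. The array labelled Pdx1-deficient 1 thus lay among the beta arrays, against its label, while the other 4 lay below every beta array. The mean Pdx1 difference was -1.39 between Pdx1-deficient and beta arrays (SE 0.34, limma adjusted p 0.0575; two-sided exact permutation p 0.0238) and -1.28 between alpha and beta arrays (limma adjusted p 0.0473; exact permutation p 0.00794, the smallest that 5 against 5 arrays can give). The signals of the main hormone genes were close in all groups. Ins2 averaged 12.03 in Pdx1-deficient, 12 in alpha and 11.90 in beta arrays, and Gcg 12.52, 12.74 and 12.35 in the same order of groups. These signals lie near the top of the range of the arrays, whose maximum was 13.45. Whether they still follow the amount of hormone RNA was not tested, so they do not show equal hormone RNA. Across the whole marker lists, 1 of 12 beta-cell markers was lower and 1 of 9 alpha-cell markers higher in Pdx1-deficient than in beta arrays, and in alpha arrays 7 of the 12 were lower and 6 of the 9 higher than in beta arrays. The mean of 17 acinar markers was 5.51 to 6.36 in Pdx1-deficient, 5.60 to 11.55 in alpha and 5.47 to 6.47 in beta arrays. The value of 11.55 belongs to alpha 5, and the counts of genes called in alpha cells are given by role with and without it. Mean signals of the duct, endothelial, leukocyte and stromal lists stayed between 5.07 and 6.64 on all arrays. The mean of 7 delta and PP cell markers was high in every group. It was 9.30 to 9.86 in Pdx1-deficient, 9.61 to 10.30 in alpha and 9.63 to 10.04 in beta arrays. The part of RNA from other islet cell types in these samples was not tested. These are bulk samples, so fewer cells of a type and less RNA per cell cannot be told apart.

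Most of the 46 genes read lower in Pdx1-deficient than in beta cells. The difference was negative for 43 of them, with a median of -0.63, where the median over all 19938 genes was 0.06. The differences ran from -1.85 (Tmed6) to 0.11 (Sec24b). After adjustment over all genes, 9 of the 46 fell and 0 rose, and the background share of genes called lower was 0.928% (called higher, 0.16%). At an unadjusted p under 0.05, 37 of the 46 were lower, where 10.8% of all genes were. The 5 Pdx1-deficient arrays all lay below the 5 beta arrays for 20 of the 46 genes, against 3.18% of all genes. Because bright genes as a class also read lower, the comparison was repeated among genes whose mean log2 signal was 8 or more: of 3056 such genes 3.24% were called lower and 10.9% had arrays that did not overlap, with a median difference of -0.2. The 37 coat and receptor genes in that range had 8 called lower, 17 without overlap and a median of -0.63. At an unadjusted limma p under 0.05, 30 of these 37 and 917 of the 3056 were lower. Differences were negative for 35 of the 37 and 2162 of the 3056.

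The count of 9 depended on single arrays and on the scaling. Without Pdx1-deficient 1 it was 15, without Pdx1-deficient 2 it was 1, and without Pdx1-deficient 4 or Pdx1-deficient 5 it was 0. Leaving out beta 1, beta 4 or beta 5 also gave 0, and leaving out beta 3 gave 1. After a further quantile normalization 0 of the 46 were called, with 27 at an unadjusted p under 0.05. Calls among all genes also moved with these settings, as the last section describes. The changes in these counts therefore cannot be read as a trait of the 46 genes alone. Of the 9 genes, Copz2 and Preb passed most often, in 9 of the 15 fits that left out 1 array, and Mcfd2 least often, in 2. The median difference kept its sign in each of these settings, and lay between -0.70 and -0.54 when any 1 array was left out.

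Alpha cells also had lower signals than beta cells for most of these genes. The difference was negative for 41 of 46, with a median of -0.61 against 0.04 over all genes, and ran from -1.41 (Tmed6) to 0.38 (Sec23a). In limma, 14 of the 46 were called lower and 0 higher, where 3.15% of all genes were called lower and 0.893% higher. The alpha arrays all lay below the beta arrays for 20 genes, against 4.05% of all genes. Among genes of mean signal 8 or more, 9.46% were called lower and 12.8% did not overlap, with a median of -0.18; the 37 members of that range had 12 called lower, 18 without overlap and a median of -0.63. The count of 14 became 6 without alpha 1, 3 without alpha 3, 8 without alpha 4, 7 without beta 1 or beta 4, and 5 without beta 5. Without alpha 5, the array with acinar signal, it was 10 and the median -0.60. By role these 10 were 2 COPI, 3 COPII, 2 p24, 1 lectin, 1 other cargo receptor and 1 Golgi matrix genes. Of the 14 genes, Sec23b, Surf4 and Tmed2 passed in all 15 fits that left out 1 array, and the other 11 in 4 to 14 of them. Quantile normalization left 6 calls and a median of -0.39. Here too, calls among all genes moved with the settings, so the counts do not describe the 46 genes alone. Both comparisons use the same 5 beta arrays, so their lists of calls are not independent of each other, and each gene's values are given side by side below.

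**Figure D1:**
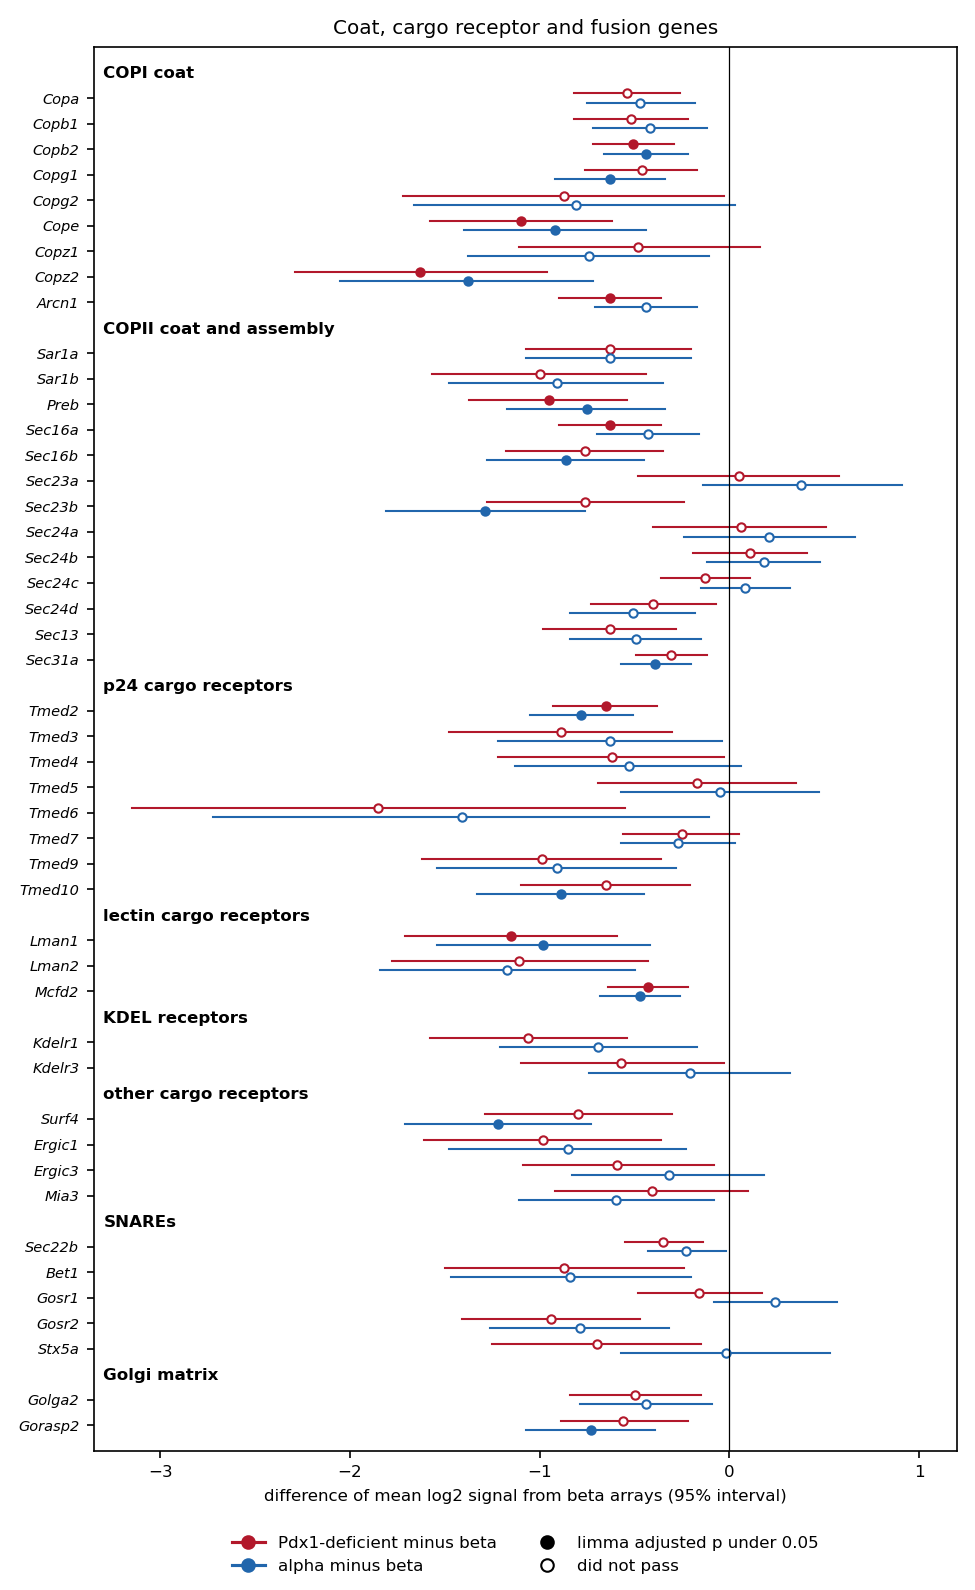
Log2 signal difference of each of the 46 measured genes (x axis) with its 95% confidence interval, grouped by role down the page, for Pdx1-deficient minus beta and alpha minus beta cells; filled points passed a limma adjusted p of 0.05. Most points lie left of 0, from -1.85 for Tmed6 in Pdx1-deficient cells to 0.38 for Sec23a in alpha cells, and the intervals of Tmed6 are the widest.

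None of these genes differed past the threshold between Pdx1-deficient and alpha cells. In limma 0 of the 46 were called in either direction, as were 0% of all genes (0 of 19938); at an unadjusted p under 0.05, 1 member was higher and 2 were lower in Pdx1-deficient cells, against 618 higher and 579 lower genes in all (2.9% lower). The median difference was -0.09, and no member had groups of arrays that did not overlap, where 0.281% of all genes were lower and 0.356% higher without overlap. The 3 members with a small unadjusted p were Sec23b (0.53 higher in Pdx1-deficient cells, 95% interval 0.00 to 1.05, adjusted p 0.825), Stx5a (-0.68, interval -1.23 to -0.13, adjusted p 0.688) and Gosr1 (-0.40, interval -0.72 to -0.08, adjusted p 0.688). These intervals leave room for differences of over 1 log2 unit in single genes, so the absence of calls does not show equal levels.

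In the COPI coat, 4 of 9 subunit genes fell in Pdx1-deficient cells and 4 of 9 fell in alpha cells. Among the 3056 genes of mean signal 8 or more, 3.24% and 9.46% were called lower. Of those 3056, differences were negative for 2162 in Pdx1-deficient and 2051 in alpha cells. Without alpha 5, 2 of the 9 COPI genes were called in alpha cells. All 9 COPI differences were negative in both comparisons (median -0.54 in Pdx1-deficient and -0.63 in alpha cells). The largest was that of Copz2, which encodes one of a pair of alternative zeta subunits. Copz2 read 9.16, 9.45, 8.92, 7.48 and 8.19 in Pdx1-deficient arrays, 8.22, 9.24, 8.53, 9.32 and 9.09 in alpha arrays, and 10.38, 10.17, 10.13, 10.34 and 10.30 in beta arrays. Every Pdx1-deficient and every alpha array was below every beta array, and the beta arrays were close together. Copz2 was 3.09-fold lower in Pdx1-deficient than in beta cells (difference -1.63, SE 0.31, limma adjusted p 0.0316) and 2.61-fold lower in alpha than in beta cells (-1.38, SE 0.31, adjusted p 0.0247). Without Pdx1-deficient 4 the first difference was -1.34 with an adjusted p of 0.0715.

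The alternative zeta subunit gene, Copz1, was less separated. Copz1 read 9.07, 8.97, 8.91, 7.46 and 9.31 in Pdx1-deficient arrays, 8, 8.97, 8.14, 8.35 and 8.94 in alpha arrays, and 9.36, 8.94, 9.16, 9.09 and 9.56 in beta arrays. The groups overlapped, and only Pdx1-deficient 4 stood far below the rest of its group. Its differences were -0.48 in Pdx1-deficient cells (adjusted p 0.342; -0.16 without Pdx1-deficient 4) and -0.74 in alpha cells (adjusted p 0.174; 0.0408 without Pdx1-deficient 4, which enters the shared estimate of spread).

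Each zeta gene also hosts a microRNA of the same seed family within its annotated span in RefSeq (GRCm38.p6). The mature strands are shown because the Copz2 signal is the most changed of the coat and its host transcript carries one of them; capitals mark the seed, bases 2 to 8, which both share.
miR-152-3p, inside Copz2 at chr11:96850439-96850459, plus strand: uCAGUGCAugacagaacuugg
miR-148b-3p, inside Copz1 at chr15:103285185-103285206, plus strand: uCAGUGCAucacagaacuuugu

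The array has a separate cluster for each microRNA gene, and neither passed the test in either comparison. The Mir152 cluster averaged 5.57 ± 0.19 in Pdx1-deficient, 5.64 ± 0.12 in alpha and 5.48 ± 0.09 in beta arrays (SD, n = 5 each), with differences from beta of 0.08 (limma adjusted p 0.598) in Pdx1-deficient and 0.16 (adjusted p 0.371) in alpha cells. The Mir148b cluster averaged 3.81 ± 0.14 in Pdx1-deficient, 3.69 ± 0.13 in alpha and 3.66 ± 0.21 in beta arrays. Both means lie under the array medians of 5.88 to 6.05, and the array does not measure the mature strands as such.

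Cope encodes the epsilon subunit. It read 9.02, 8.22, 8.87, 8.25 and 7.73 in Pdx1-deficient arrays, 8.31, 8.89, 8.59, 8.61 and 8.62 in alpha arrays, and 9.54, 9.03, 9.43, 9.58 and 10.03 in beta arrays. All Pdx1-deficient arrays lay below all beta arrays, with Pdx1-deficient 1 only just under beta 2, and the alpha arrays were also below. Cope was 2.15-fold lower in Pdx1-deficient cells (-1.10, SE 0.22, limma adjusted p 0.0346) and 1.89-fold lower in alpha cells (-0.92, SE 0.22, adjusted p 0.0362) than in beta cells.

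Copb2 (the beta-prime subunit) and Arcn1 (the delta subunit) moved less but with tight arrays. Copb2 read 10.62, 10.47, 10.53, 10.32 and 10.01 in Pdx1-deficient arrays, 10.36, 10.57, 10.45, 10.44 and 10.47 in alpha arrays, and 10.78, 10.91, 10.87, 11.00 and 10.93 in beta arrays. Neither of the first groups reached the beta range. It was 1.42-fold lower in Pdx1-deficient than in beta cells (-0.51, SE 0.10, limma adjusted p 0.0331), and alpha cells were lower by -0.44 (adjusted p 0.0286). Arcn1 read 9.99, 9.91, 9.69, 9.52 and 9.40 in Pdx1-deficient arrays, 9.96, 10.16, 9.69, 9.88 and 9.80 in alpha arrays, and 10.10, 10.48, 10.38, 10.5 and 10.22 in beta arrays. The Pdx1-deficient arrays were all below the beta arrays and the alpha arrays overlapped them. Arcn1 fell by 0.63 in Pdx1-deficient cells (SE 0.13, 1.55-fold, limma adjusted p 0.0327), and its difference in alpha cells was -0.44 (adjusted p 0.0654).

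Copg1, one of a pair of gamma subunit genes, was called in alpha cells. It read 8.31, 8.17, 8.35, 7.84 and 8.03 in Pdx1-deficient arrays, 7.95, 8.07, 7.67, 7.97 and 8.21 in alpha arrays, and 8.87, 8.29, 8.54, 8.45 and 8.87 in beta arrays. The alpha arrays lay below the beta arrays, and 2 Pdx1-deficient arrays overlapped them. Copg1 was 1.55-fold lower in alpha cells (-0.63, SE 0.14, limma adjusted p 0.0209), and in Pdx1-deficient cells the difference was -0.46 (adjusted p 0.0945). Its counterpart Copg2 read 8.20, 8.55, 8.19, 6.84 and 6.14 in Pdx1-deficient arrays, 7.64, 8.14, 7.31, 8.24 and 6.90 in alpha arrays, and 8.45, 8.17, 8.31, 8.75 and 8.61 in beta arrays. Copg2 arrays overlapped, with Pdx1-deficient 4 and 5 far below the other 3, and the differences of -0.87 (adjusted p 0.219) and -0.81 (adjusted p 0.257) did not pass. The remaining subunit genes, Copa (alpha) and Copb1 (beta), had differences of -0.54 and -0.52 in Pdx1-deficient cells and -0.47 and -0.42 in alpha cells, with adjusted p between 0.0606 and 0.112.

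In the COPII coat and its assembly factors, 2 of 13 genes fell in Pdx1-deficient cells and 4 of 13 in alpha cells. The median differences were -0.63 and -0.49. Of genes of mean signal 8 or more, 3.24% and 9.46% were called lower. Without alpha 5, 3 of the 13 COPII genes were called in alpha cells. Preb, known as Sec12, is the exchange factor that loads Sar1 with GTP and so starts coat assembly. It read 8.89, 7.91, 8.42, 8.39 and 7.80 in Pdx1-deficient arrays, 8.68, 8.36, 8.20, 8.77 and 8.38 in alpha arrays, and 9.28, 9.05, 8.84, 9.56 and 9.44 in beta arrays. The alpha arrays lay below all beta arrays, and Pdx1-deficient 1 lay just above beta 3. Preb was 1.94-fold lower in Pdx1-deficient cells (-0.95, SE 0.20, limma adjusted p 0.0358) and 1.69-fold lower in alpha cells (-0.75, SE 0.20, adjusted p 0.0444). Its substrates, the Sar1 GTPase genes, did not pass: Sar1a had a difference of -0.63 in both comparisons (adjusted p 0.115 in Pdx1-deficient and 0.0956 in alpha cells), and Sar1b -1.0 in Pdx1-deficient (adjusted p 0.0716) and -0.91 in alpha cells (adjusted p 0.0653).

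Sec16a and Sec16b are scaffold proteins of ER exit sites. Sec16a read 7.94, 7.66, 7.73, 8.01 and 7.41 in Pdx1-deficient arrays, 7.88, 7.76, 7.83, 8.24 and 8.05 in alpha arrays, and 8.30, 8.21, 8.32, 8.45 and 8.62 in beta arrays. Only alpha 4 reached the beta range. Sec16a was 1.55-fold lower in Pdx1-deficient cells (-0.63, SE 0.13, limma adjusted p 0.0324), and in alpha cells the difference was -0.43 (adjusted p 0.0665). The dimmer Sec16b read 6.45, 6.04, 6.29, 6.40 and 5.94 in Pdx1-deficient arrays, 5.93, 6.48, 5.92, 5.92 and 6.38 in alpha arrays, and 6.82, 6.79, 6.98, 7.75 and 6.60 in beta arrays. Neither group overlapped beta, and beta 4 was the highest array. Sec16b was 1.82-fold lower in alpha cells (-0.86, SE 0.19, limma adjusted p 0.0253), and its difference in Pdx1-deficient cells was -0.76 (adjusted p 0.0665).

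Sec23 is the inner-shell subunit that activates the GTPase of Sar1 and exists as a pair of paralogs. Sec23b read 8.90, 8.85, 9.19, 8.93 and 7.76 in Pdx1-deficient arrays, 7.76, 8.91, 8.11, 8.22 and 7.99 in alpha arrays, and 9.64, 9.14, 9.46, 9.67 and 9.52 in beta arrays. All alpha arrays were below all beta arrays, while Pdx1-deficient 3 lay above beta 2. Sec23b was 2.44-fold lower in alpha cells (-1.29, SE 0.25, limma adjusted p 0.0121), a call that held in each of the 15 fits that left out 1 array; in Pdx1-deficient cells the difference was -0.76 (adjusted p 0.116), and -0.52 without Pdx1-deficient 5. Sec23a read 7.87, 7.82, 8.09, 6.85 and 7.66 in Pdx1-deficient arrays, 8.08, 8.04, 8.12, 8.07 and 7.68 in alpha arrays, and 7.53, 8.10, 7.65, 8.03 and 6.75 in beta arrays. Its groups overlapped throughout, with differences of 0.05 (adjusted p 0.92) and 0.38 (adjusted p 0.391).

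Sec24 proteins select cargo for the inner shell. Sec24a, Sec24b and Sec24c had small differences, of 0.06, 0.11 and -0.13 in Pdx1-deficient cells and 0.21, 0.18 and 0.08 in alpha cells, with adjusted p of 0.48 or more. Sec24d had differences of -0.40 (adjusted p 0.167) and -0.51 (adjusted p 0.0762). Of the outer shell, Sec31a had a difference of -0.31 in Pdx1-deficient cells (adjusted p 0.0832) and fell by 0.39 in alpha cells (adjusted p 0.0232). Sec13 had differences of -0.63 (adjusted p 0.0684) and -0.49 (adjusted p 0.102).

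**Figure D2:**
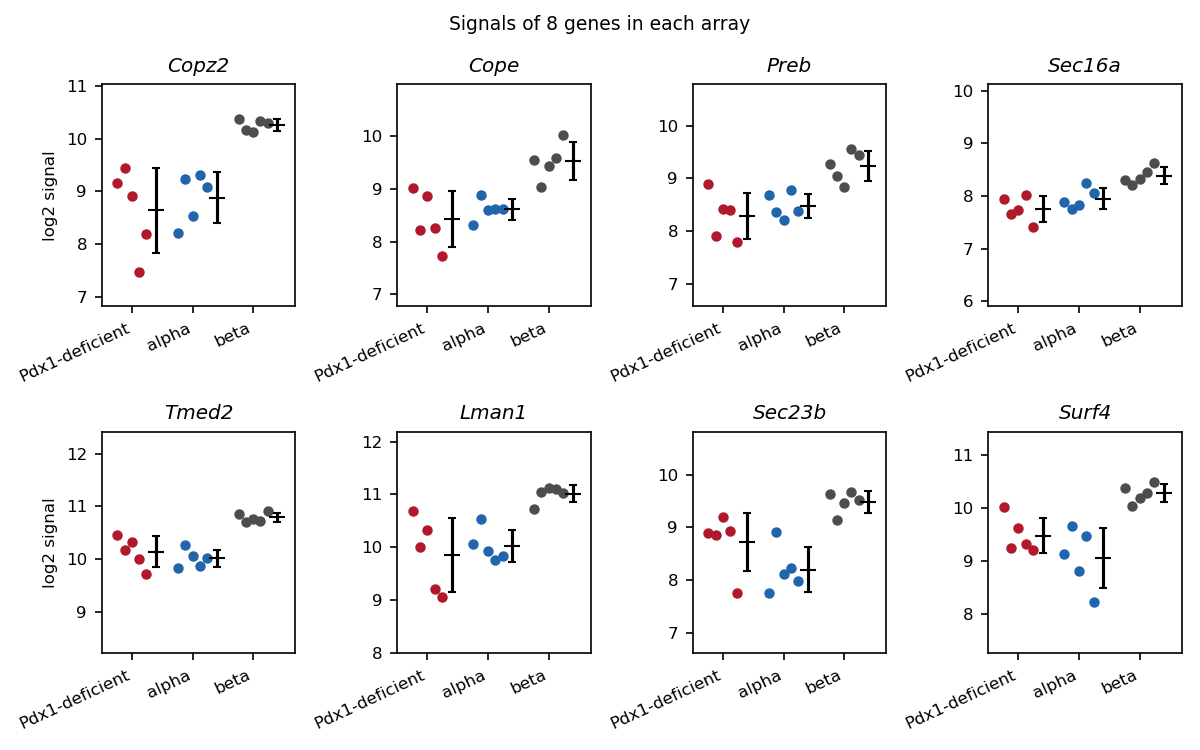
Log2 signal on each array (points) with group mean and SD (bars) for 8 genes called in at least 1 comparison, in Pdx1-deficient, alpha and beta cells (5 arrays each). Copz2 arrays of Pdx1-deficient cells (7.48 to 9.45) and of alpha cells (8.22 to 9.32) all sit below the beta arrays (10.13 to 10.38).

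Among the 17 measured cargo receptor genes, 3 fell in Pdx1-deficient and 5 in alpha cells. The background shares called lower were 0.928% and 3.15% of all genes, or 3.24% and 9.46% of genes of mean signal 8 or more. All 17 differences were negative in both comparisons, as were 2162 and 2051 of the 3056 genes of mean signal 8 or more. The p24 family (Tmed genes) consists of transmembrane proteins that cycle between the ER and the Golgi, bind both coats and act as receptors for lipid-anchored proteins. In this family 1 of 8 genes fell in Pdx1-deficient cells and 2 of 8 in alpha cells. Tmed2 read 10.46, 10.18, 10.33, 10 and 9.71 in Pdx1-deficient arrays, 9.83, 10.26, 10.06, 9.86 and 10.02 in alpha arrays, and 10.85, 10.70, 10.75, 10.73 and 10.92 in beta arrays. No array of either group reached the beta range. Tmed2 was 1.57-fold lower in Pdx1-deficient cells (-0.65, SE 0.13, limma adjusted p 0.0322) and 1.72-fold lower in alpha cells (-0.78, SE 0.13, adjusted p 0.00594); the alpha call held whichever array was left out. Its other clusters gave -0.91 and -0.72 for Pdx1-deficient and -0.97 and -0.86 for alpha cells.

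Tmed10, the partner of Tmed2 in p24 complexes, read 10.51, 10.43, 10.53, 9.96 and 9.52 in Pdx1-deficient arrays, 9.99, 10.58, 9.46, 9.75 and 9.99 in alpha arrays, and 10.77, 10.72, 10.88, 10.80 and 11.04 in beta arrays. Both groups lay below the beta arrays, and alpha 2 was the highest of the alpha arrays. It was 1.85-fold lower in alpha cells (-0.89, SE 0.21, limma adjusted p 0.0296), and its difference in Pdx1-deficient cells was -0.65 (adjusted p 0.114). A second Tmed10 cluster gave -0.53 in Pdx1-deficient and -0.44 in alpha cells.

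Tmed6 had the most negative difference of all 46 genes in both comparisons, and did not pass in either. It read 5.53, 5.67, 6.76, 5.68 and 6.71 in Pdx1-deficient arrays, 5.26, 6.85, 5.05, 5.99 and 9.37 in alpha arrays, and 8.04, 8.06, 7.57, 8.06 and 7.87 in beta arrays. Pdx1-deficient arrays all lay below beta arrays, and so did the alpha arrays except alpha 5, the array with the high acinar signal. The differences were -1.85 (SE 0.61, limma adjusted p 0.122) in Pdx1-deficient and -1.41 (adjusted p 0.206) in alpha cells. Without alpha 5 the alpha difference was -2.13 with an adjusted p of 0.0121. The part of acinar RNA in the alpha 5 value was not tested. Tmed5, with group means of 5.23 to 5.40, was dim, with differences of -0.17 and -0.05, and Tmed3, Tmed4, Tmed7 and Tmed9 had differences of -0.99 to -0.25 in Pdx1-deficient and -0.91 to -0.27 in alpha cells, none past the threshold.

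Lman1 and Mcfd2 form a lectin receptor complex that exports clotting factors from the ER, and both were called lower in both comparisons. Without alpha 5, 1 of the 3 lectin receptor genes was called in alpha cells and 0 in Pdx1-deficient cells. Lman1 read 10.69, 10.01, 10.32, 9.21 and 9.05 in Pdx1-deficient arrays, 10.06, 10.53, 9.93, 9.75 and 9.84 in alpha arrays, and 10.73, 11.04, 11.13, 11.10 and 11.03 in beta arrays. The groups did not overlap, though Pdx1-deficient 1 came close to beta 1. It was 2.22-fold lower in Pdx1-deficient cells (-1.15, SE 0.26, limma adjusted p 0.0497) and 1.98-fold lower in alpha cells (-0.98, SE 0.26, adjusted p 0.0496). Both values stand at the threshold: the call held in 3 of 15 fits with 1 array left out for Pdx1-deficient cells and in 4 of 15 for alpha cells.

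Mcfd2 read 7.17, 7.15, 7.30, 7.26 and 7.02 in Pdx1-deficient arrays, 7.30, 7.24, 7.06, 6.99 and 7.12 in alpha arrays, and 7.68, 7.30, 7.59, 7.70 and 7.80 in beta arrays. Beta 2 was as low as the highest arrays of the other groups. The differences were -0.43 (SE 0.10, 1.35-fold, limma adjusted p 0.0497) in Pdx1-deficient cells and -0.47 (SE 0.10, 1.39-fold, adjusted p 0.0177) in alpha cells. The related lectin Lman2 had larger but more scattered differences, of -1.11 (adjusted p 0.0876) and -1.17 (adjusted p 0.0511).

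Surf4, a receptor that exports soluble secreted proteins from the ER, fell in alpha cells. It read 10.02, 9.25, 9.62, 9.32 and 9.21 in Pdx1-deficient arrays, 9.13, 9.66, 8.81, 9.47 and 8.21 in alpha arrays, and 10.38, 10.04, 10.20, 10.28 and 10.49 in beta arrays. All beta arrays were above all others, and alpha 5 was the lowest array. Surf4 was 2.33-fold lower in alpha cells (-1.22, SE 0.23, limma adjusted p 0.0114); without alpha 5 the difference was -1.01 (adjusted p 0.0179), and the call held in all 15 fits with 1 array left out. In Pdx1-deficient cells the difference was -0.80 (adjusted p 0.09). Ergic1 and Ergic3, membrane proteins that cycle through the intermediate compartment, had differences of -0.98 and -0.59 in Pdx1-deficient and -0.85 and -0.32 in alpha cells, and Mia3, which helps load bulky cargo such as procollagen, -0.41 and -0.60; none passed.

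The KDEL receptors return ER-resident chaperones from the Golgi in COPI carriers, and neither measured gene was called. Kdelr1 read 8.21, 7.87, 8, 6.92 and 7.06 in Pdx1-deficient arrays, 8.05, 8.22, 7.85, 7.69 and 8.13 in alpha arrays, and 8.72, 8.10, 8.73, 8.66 and 9.15 in beta arrays. Pdx1-deficient 4 and 5 were the lowest, and beta 2 lay within the range of the other groups. The difference in Pdx1-deficient cells, -1.06 (SE 0.24), had a limma adjusted p of 0.0503, and that in alpha cells was -0.69 (adjusted p 0.13). Kdelr3 was dim, with means of 4.97 in Pdx1-deficient, 5.32 in alpha and 5.53 in beta arrays.

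None of the 5 SNARE genes was called in either comparison. Gosr2 and Bet1 had the most negative differences, -0.94 (limma adjusted p 0.052) and -0.87 (adjusted p 0.13) in Pdx1-deficient cells and -0.79 (adjusted p 0.0585) and -0.84 (adjusted p 0.129) in alpha cells. Sec22b had -0.35 and -0.23. Stx5a, the syntaxin of this step, read 9.27, 9.04, 9.21, 8.69 and 7.68 in Pdx1-deficient arrays, 9.47, 9.09, 9.53, 9.52 and 9.68 in alpha arrays, and 9.55, 9.17, 9.15, 9.54 and 10 in beta arrays. The alpha and beta arrays overlapped, with a difference of -0.02, and Pdx1-deficient 4 and 5 were the lowest arrays (-0.70, adjusted p 0.15). Gosr1 had -0.16 in Pdx1-deficient and 0.24 in alpha cells.

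Of the Golgi matrix genes, Gorasp2, which tethers and stacks cisternae, read 9.45, 9.33, 9.58, 9.28 and 9.61 in Pdx1-deficient arrays, 8.66, 9.58, 9.22, 9.51 and 9.40 in alpha arrays, and 10.25, 9.85, 9.72, 10.07 and 10.14 in beta arrays. Both groups were below the beta arrays. Gorasp2 was 1.66-fold lower in alpha cells (-0.73, SE 0.16, limma adjusted p 0.0207), and the difference in Pdx1-deficient cells was -0.56 (adjusted p 0.0867). Golga2, a golgin of the cis face, had -0.50 (adjusted p 0.121) and -0.44 (adjusted p 0.145).

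The arrays of a group were unequal over the whole set. The median of the 46 genes, each set against its beta mean, was -0.32, -0.47, -0.39, -0.79 and -0.95 in Pdx1-deficient arrays 1 to 5, -0.64, -0.38, -0.67, -0.54 and -0.53 in alpha arrays, and 0.05, -0.14, -0.06, 0.06 and 0.18 in beta arrays. Every Pdx1-deficient and alpha array was below every beta array, and Pdx1-deficient 4 and 5 were the lowest of the 15. Those 2 arrays held the lowest signal of all 15 for 10 and 17 genes, and beta 5 held the highest for 22. Genes of mean signal 8 or more showed a smaller shift in the same arrays: their medians were -0.09, -0.11, -0.08, -0.31 and -0.31 in Pdx1-deficient, -0.26, -0.02, -0.22, -0.15 and -0.18 in alpha, and -0.02 to 0.03 in beta arrays. The part of this array-wide shift in the coat and receptor differences was not tested directly; after quantile normalization, which makes the distributions of the arrays equal, the medians of the 46 genes were -0.41 in Pdx1-deficient and -0.39 in alpha cells.

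Without both Pdx1-deficient 4 and 5, a setting chosen after seeing the data, 0 of the 46 were called in Pdx1-deficient cells, 28 had an unadjusted p under 0.05, and the median was -0.40. The medians by role in that setting were -0.33 for COPI, -0.39 for COPII and -0.36 for the p24 family. Pdx1-deficient 1, the array with beta-like Pdx1 signal, had the highest signal of its group for 22 of the 46 genes, and alpha 2, the alpha array with the lowest alpha-marker signal, for 24 in its own group.

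**Figure D3:**
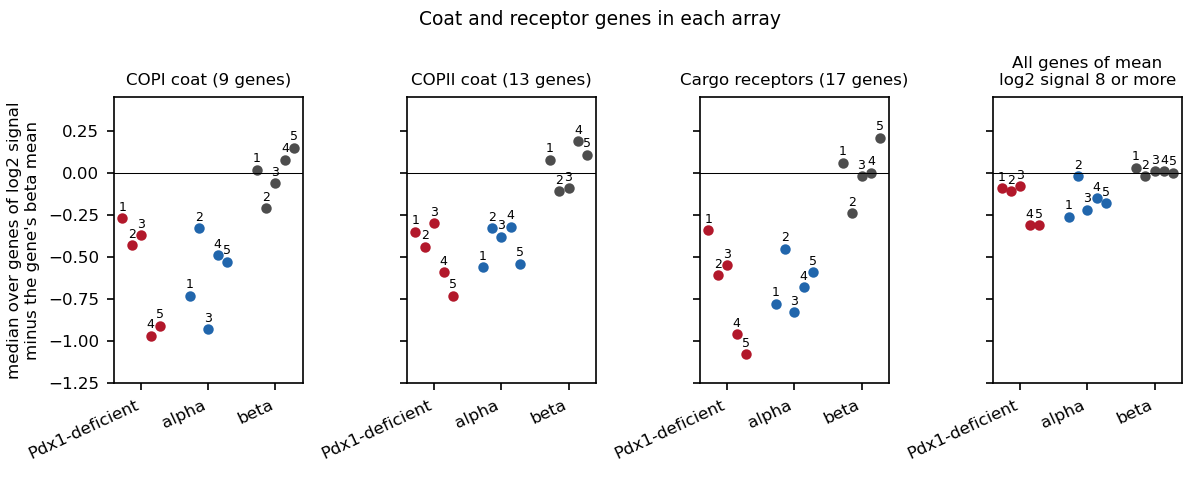
Median difference from the beta mean (y axis, log2) on each of the 15 arrays. The panels hold 9 COPI coat genes, 13 COPII coat genes, 17 cargo receptor genes and all genes of mean log2 signal 8 or more. The COPI medians are -0.97 to -0.27 on Pdx1-deficient arrays, -0.93 to -0.33 on alpha arrays and -0.21 to 0.15 on beta arrays.

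Paralogous subunits were compared directly, by the log2 signal of one gene minus that of its paralog on the same array, with two-sided exact permutation tests over arrays for 11 pairs in 3 comparisons. After adjustment over these 33 tests no pair passed, but a pass needs several tests at once at the smallest p the design allows. The absence of a pass thus does not show that paralogs shifted alike. The smallest adjusted p was 0.0873, shared by 3 tests whose raw exact permutation p of 0.00794 is that smallest value. Of these, Copz2 minus Copz1 averaged -0.10 ± 0.60 in Pdx1-deficient and 1.04 ± 0.21 in beta arrays (SD, n = 5 each), a shift of -1.15 with groups that did not overlap. In alpha arrays Copz2 minus Copz1 averaged 0.40 ± 0.32, a shift of -0.64 (exact permutation p 0.0159, adjusted 0.131). Sec23b minus Sec23a averaged 0.20 ± 0.44 in alpha and 1.87 ± 0.64 in beta arrays, a shift of -1.67 without overlap. The same pair averaged 1.07 ± 0.70 in Pdx1-deficient arrays, a shift of -0.81 (exact permutation p 0.0952, adjusted 0.299), and the Pdx1-deficient and alpha arrays differed by 0.87 (exact permutation p 0.0476, adjusted 0.196). Sec24d minus Sec24c averaged -0.56 ± 0.16 in alpha and 0.03 ± 0.22 in beta arrays, a shift of -0.60 without overlap, and -0.24 ± 0.25 in Pdx1-deficient arrays. For Sec16b and Sec16a, and for Copg1 and Copg2, the shifts lay between -0.43 and 0.41 with exact permutation p of 0.127 or more, so a call in one paralog and not in the other did not show that they differed.

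**Figure D4:**
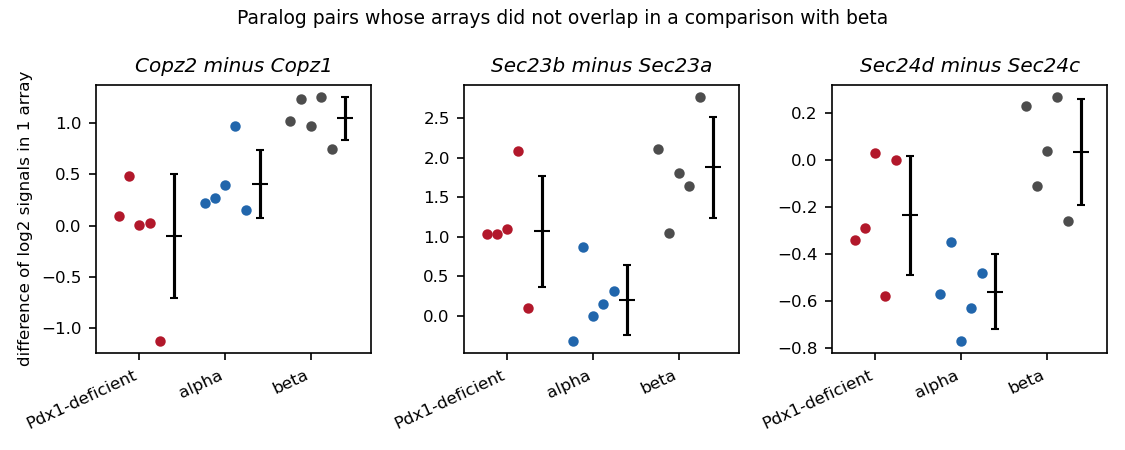
Log2 signal of one paralog minus that of the other on each array (points), for the 3 pairs with arrays that did not overlap in a comparison with beta cells. Copz2 minus Copz1 averages -0.10 in Pdx1-deficient and 1.04 in beta arrays, and Sec23b minus Sec23a 0.20 in alpha and 1.87 in beta arrays; no pair passed after adjustment over 33 tests.

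Neighbouring steps of the pathway were read from further gene lists, whose counts stand against 0.928% of all genes called lower in Pdx1-deficient and 3.15% in alpha cells, or 3.24% and 9.46% of genes of mean signal 8 or more. Of 44 other ER and Golgi transport genes, 3 fell in Pdx1-deficient and 5 in alpha cells, with medians of -0.36 and -0.30. Yif1b, an ER to Golgi membrane protein, had differences of -0.86 (limma adjusted p 0.0322) and -1.05 (adjusted p 0.00594), and Stx18, an ER syntaxin of the retrograde route, -0.91 (adjusted p 0.0367) and -0.74 (adjusted p 0.0415). Arfgap2, which stimulates GTP hydrolysis by Arf1 on COPI carriers, fell by 0.73 in Pdx1-deficient cells (adjusted p 0.0316), and its relative Arfgap3 by 0.85 in alpha cells (adjusted p 0.0052). Sec23ip, a Sec23-binding protein, had -0.68 in alpha cells (adjusted p 0.0435), and Arf1, the COPI GTPase, which was the fifth gene called, -0.42 (adjusted p 0.0371). The 21 TRAPP and COG tether genes had medians of -0.40 and -0.34, and 0 fell in Pdx1-deficient cells in limma. At an unadjusted limma p under 0.05, 10 of these 21 were lower in Pdx1-deficient cells. That held for 10.8% of all genes and for 917 of the 3056 genes of mean signal 8 or more. Trappc2l and Trappc4 each had -0.91. In alpha cells 1 tether gene fell, Trappc5 (-0.70, limma adjusted p 0.0347). The 21 genes of clathrin and the AP-1 and AP-3 adaptors, coats of the later secretory and endosomal steps, had medians of -0.27 and -0.26. Of these, 0 fell in Pdx1-deficient cells (Ap1m2 had -0.66 and Ap3b1 -0.57) and 1 in alpha cells, Gga2 (-0.63, limma adjusted p 0.0121). At an unadjusted limma p under 0.05, 7 of the 21 were lower in Pdx1-deficient cells. This was above the 10.8% of all genes but close to the share among genes of mean signal 8 or more (917 of 3056). Without alpha 5, the alpha calls were 4 of 44 transport, 0 of 21 tether and 1 of 21 clathrin and adaptor genes. The difference between these lists and the coat genes was not tested.

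Of 9 transcription factors known to drive secretory pathway genes, 4 fell in Pdx1-deficient and 3 in alpha cells, where 0.928% and 3.15% of all genes were called lower. Creb3l1, an ER-anchored factor, read 7.17, 6.52, 7.19, 7.34 and 6.65 in Pdx1-deficient arrays, 6.69, 7.28, 6.85, 6.02 and 6.82 in alpha arrays, and 8.37, 8.15, 8.24, 8.22 and 8.46 in beta arrays. No array of either group came near the beta range. Creb3l1 had differences of -1.31 (SE 0.20, limma adjusted p 0.0234) in Pdx1-deficient and -1.55 (SE 0.20, adjusted p 0.00211) in alpha cells. Bhlha15, known as Mist1, a factor of professional secretory cells, had -1.09 (adjusted p 0.0316) and -1.16 (adjusted p 0.00632). Xbp1, a main factor of the unfolded protein response, had -0.57 (adjusted p 0.0316) and -0.43 (adjusted p 0.0371), and Atf4, of the integrated stress response, -0.68 (adjusted p 0.0491) in Pdx1-deficient and -0.45 (adjusted p 0.109) in alpha cells. The other 5 did not pass in either comparison: Creb3 had -1.04 in Pdx1-deficient and -0.53 in alpha cells, Atf6 -0.42 and -0.40, Atf6b -0.35 and -0.36, Creb3l2 -0.06 and -0.18, and Creb3l4 0.11 and 0.05. Without Pdx1-deficient 4 and 5 together, 0 of the 9 were called in Pdx1-deficient cells, and after quantile normalization 0 in Pdx1-deficient and 2 in alpha cells. Without alpha 5, 2 of the 9 were called in alpha cells.

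Because of these factors, RefSeq promoters (GRCm38.p6) were searched on both strands for their known DNA elements in the 250 bases before the start site. Of the 47 listed genes, 42 had an entry. The element TGACGTGG (UPRE, bound by Xbp1 and Atf6) stood in 4 of the 42, or 9.52%, namely Copb1, Kdelr3, Sec16b and Sec24d, and in 0.603% of the 27025 genes in the table. The element TGACGTCA (CRE, bound by Creb and Atf proteins) stood in Cope and Gosr2, 2 of 42 or 4.76%, and in 1.77% of all genes. The longer composite elements ERSE and ERSE-II, which join a CCAAT box to a CCACG box, were in none of the 42, and in 0.13% and 0.037% of all genes. A match is a description and says nothing of use in these cells. The stretches that lie outside the annotated span of their gene are printed on the gene's strand to show where the element, in capitals, sits; in Copb1 and Kdelr3 it reads on the opposite strand.
Cope, chr8:70302527-70302594, plus strand, element 210 to 203 bases before the start: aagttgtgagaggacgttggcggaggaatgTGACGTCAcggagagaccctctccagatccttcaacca
Gosr2, chr11:103697910-103697973, minus strand, element 224 to 217 bases before the start: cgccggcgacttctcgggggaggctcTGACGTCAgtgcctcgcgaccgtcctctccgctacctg
Copb1, chr7:114254681-114254738, minus strand, element 28 to 21 bases before the start: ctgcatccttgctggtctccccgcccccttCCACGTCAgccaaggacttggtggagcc
Kdelr3, chr15:79516348-79516407, plus strand, element 30 to 23 bases before the start: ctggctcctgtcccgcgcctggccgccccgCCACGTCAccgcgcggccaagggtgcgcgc
Of the 6 genes with an element, Cope was called lower in both comparisons, Sec16b in the alpha comparison, and Gosr2, Copb1, Kdelr3 and Sec24d in neither.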

How the data were processed

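RNA was measured on 15 Affymetrix Mouse Gene 1.0 ST arrays, 5 per group. The authors' deposited values are log2 signals, 1 per transcript cluster (range 2.11 to 13.45), made with Affymetrix Expression Console per the submitters' processing notes; no source used here gives the version, the summarization method, the log base or the genome build. Of 35556 clusters, 21789 carried 1 symbol in the platform annotation, giving 19938 genes. Differences were fitted with limma 3.58.1 (lmFit, eBayes; R 4.3.3) as 3 group means over 15 arrays, adjusted by Benjamini-Hochberg over all genes, threshold 0.05; this was tested on simulated data. Exact permutation tests used all 252 splits of 10 arrays. Full values are given for up to 12 called genes per comparison, largest difference first, and their paralogs; up to 4 per further list; other members where they are extremes of their class or were chosen after their values were seen (Kdelr1, Stx5a). Members and lists were chosen with earlier results of these data known. For arrays, the number per group limits precision. Alternatives varied scaling, filter, variance model, weights, arrays and cluster choice.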

Additional observations from a re-analysis of the deposited data

Results flagged for a closer look

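In 8 of 141 sets of 5 arrays (46 genes and Pdx1 in 3 groups), 1 array stood far from the other 4 by Dixon's criterion for 5 values, and chance gives about 1 in 20. Of these, 4 were in Pdx1-deficient arrays. Copz1 in Pdx1-deficient 4 was lowest at 7.46, where the others were 8.91 to 9.31, and without that array its difference from beta was -0.16 in place of -0.48. Sec23b in Pdx1-deficient 5 was lowest at 7.76, where the others were 8.85 to 9.19, and without it the difference was -0.52 in place of -0.76. Tmed9 in Pdx1-deficient 5 was lowest at 7.29, where the others were 8.25 to 8.46, and without it the difference was -0.78 in place of -0.99. Golga2 in Pdx1-deficient 2 was lowest at 6.81, where the others were 7.21 to 7.29.

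In alpha arrays, Sec23a was lowest in alpha 5 at 7.68, where the others were 8.04 to 8.12, and Lman2 was highest in alpha 2 at 8.26, where the others were 7.21 to 7.44. Without alpha 2 the Lman2 difference from beta was -1.35 with a limma adjusted p of 0.0202, in place of -1.17 and 0.0511. In beta arrays, Lman1 was lowest in beta 1 at 10.73, where the others were 11.03 to 11.13, and without it the adjusted p was 0.0902 for Pdx1-deficient and 0.0742 for alpha cells. Kdelr3 was highest in beta 5 at 6.62, where the others were 5.16 to 5.39, and without it the differences were -0.29 in Pdx1-deficient and 0.06 in alpha cells.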

How the results depend on the processing

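No called difference of a single gene, and neither median difference from beta, changed sign under 25 alternatives each. Small uncalled differences did in Gosr1, Sec23a, Sec24a and Sec24c in Pdx1-deficient cells and Kdelr3, Stx5a and Tmed5 in alpha cells: Sec23a (0.05) was -0.17 without beta 5, and Stx5a (-0.02) was 0.20 after quantile normalization. The Pdx1-deficient against alpha median (-0.09) was 0.05 with array weights and 0.14 without Pdx1-deficient 4 and 5. For Pdx1-deficient against beta, the 9 genes called became 15 with dim genes removed (44 genes tested), 4 with a trended and robust variance, 5 with array weights, 1 with only these 2 groups, 0 after quantile normalization, 16 without Pdx1-deficient 1 and alpha 2, 0 without Pdx1-deficient 4 and 5 (chosen after seeing the data), and 0 to 15 with 1 array left out. For alpha against beta, the 14 became 6 after quantile normalization (median -0.39), 26 without Pdx1-deficient 4 and 5, and 3 to 17 with 1 array left out. Genes called among all 19938 moved with these settings, from 217 to 4 in Pdx1-deficient and from 806 to 483 in alpha cells after quantile normalization, for example; the cause was not tested. Sec23b, Surf4 and Tmed2 in alpha cells were called under all 25 alternatives. Pdx1-deficient against alpha gave 0 throughout. With the replicate number as a block, 0 of the 46 were called in Pdx1-deficient cells (36 at an unadjusted p under 0.05) and 9 in alpha cells. The replicate numbers gave no sign of pairing the samples, though these values cannot exclude it. Correlations of same-numbered arrays over genes ran from -0.172 to 0.224, and 3 of 15 were best with their own number. No paralog pair passed under any alternative, but these tests had little room to pass. The smallest exact permutation p is 0.00794 for 5 against 5 arrays and 0.0159 for 4 against 5, before adjustment over 33 tests. Sign flips over 5 pairs were not run, since they allow no p under 0.0625.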
